A study of Rattus norvegicus with 11 samples.

Results

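Tuft cells are rare chemosensory cells of the gut epithelium. They sense luminal molecules through the receptors and signalling chain of taste cells, and they answer with interleukin-25, leukotrienes, prostaglandins and acetylcholine. In the small intestine they are known for starting type 2 immunity, in which interleukin-25 and cysteinyl leukotrienes act on innate lymphoid cells, and interleukin-13 from these cells in turn expands the tuft cells. The 9 tuft cell genes described here were given by symbol. They were Pou2f3 and Gfi1b (transcription factors), Trpm5 (the cation channel at the end of the taste chain), Avil, Dclk1 and Sh2d6 (structural and signalling markers), and Il25, Alox5ap and Ltc4s (effector genes). All 9 were among the 24481 genes with reads and the 24205 genes with FPKM, which is reads scaled to gene length and library size.

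RNA was taken from ileal tissue of SD rats aged 6-8 weeks and sequenced in 11 libraries. Severe acute pancreatitis (SAP) was produced with sodium taurocholate in the pancreatic duct, and 24 h after surgery the rats were divided into 3 groups. The SAP group (4 libraries) received vehicle, the JZL184 group (4 libraries) had SAP and received 10 mg/kg of JZL184, an inhibitor of the 2-arachidonoylglycerol-degrading enzyme MAGL, and the control group (3 libraries) received vehicle. The rats were killed 24 h later. No genetic change was named for any group. The surgery of the control rats was not given in the sources used here, and for control libraries the labels named a control plasmid where the protocol named vehicle. The titles of the SAP libraries named oil, where the protocol named a vehicle of saline, ethanol and Tween-80.

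The libraries held 26341299 to 33847135 reads on genes. Control libraries 1 and 2 were far closer to each other than any other pair of one group (chi-square per gene 2.81, against 77.49 to 563.06) and were counted as 1 sample. The control group therefore had n = 2 in the main tests and in each mean ± SD. SAP libraries 1 and 2 stood apart, with 18.24% and 19.19% of reads on the longest 25% of genes against 9.29% to 11.95% in the other libraries. SAP library 2 held 20 reads on 3 Y-linked genes and the others 1222 to 4665, although the study used male rats. The labels named the cells intestinal epithelial cells, but smooth muscle markers, led by Des, Actg2 and Tagln, were present at a summed FPKM of 366.67 to 2115.41, so the samples were read as whole ileal tissue. In such tissue, fewer tuft cells and less RNA per tuft cell cannot be told apart.

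By level, the tuft cell genes fell into abundant and scarce members. Alox5ap had the highest mean FPKM (9.57, above 80.9% of genes), followed by Sh2d6 (5.00, above 73.4%) and Avil (1.59, above 59.6%). Ltc4s (0.597), Pou2f3 (0.560), Dclk1 (0.490) and Trpm5 (0.458) followed within a narrow range, and their values by library overlapped, so that the order of these 4 genes was not separated by the spread. Gfi1b (mean FPKM 0.072) and Il25 (0.041) were at the bottom. By reads, 7 of 9 genes had a mean of at least 10 reads per library. Gfi1b had a mean of 8.73 reads, and Il25 had 7 reads in all 11 libraries together, with no library above 2. Pou2f3 lies on chromosome 8, Gfi1b on 3, Trpm5 on 1, Avil on 7, Dclk1 on 2, Sh2d6 on 4, Il25 on 15, Alox5ap on 12 and Ltc4s on 10 in the annotation of the files (mRatBN7.2).

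Promoter windows from 250 bases before to 50 after an annotated start were available from RefSeq (build GRCr8) for 6 members, Gfi1b, Trpm5, Avil, Dclk1, Sh2d6 and Ltc4s, in 7 windows. Pou2f3 is a POU factor, a class known to bind octamer sequences, so the windows were searched on both strands for ATGCAAAT and for its first 7 letters, ATGCAAA, which every match of the longer motif also holds. The 8-letter motif was in 0 of the 7 windows and in 1.78% of 33469 rat windows. The 7-letter motif was in the Avil window alone and in 4.68% of all windows. A match is a description of letters and not a binding site. The windows of Avil, Trpm5 and Sh2d6, whose levels varied together most closely, and of Ltc4s, which moved apart from them, are shown 5′ to 3′ on the strand of the gene, with ATGCAAA in capitals. They lie at chr7:64711153-64711452 (plus strand), chr1:207707039-207707338, chr4:106132288-106132587 and chr10:35063545-35063844 (all minus strand). The windows of Trpm5 and Ltc4s belong to a transcript start other than the outermost start of the gene.
Avil promoter window: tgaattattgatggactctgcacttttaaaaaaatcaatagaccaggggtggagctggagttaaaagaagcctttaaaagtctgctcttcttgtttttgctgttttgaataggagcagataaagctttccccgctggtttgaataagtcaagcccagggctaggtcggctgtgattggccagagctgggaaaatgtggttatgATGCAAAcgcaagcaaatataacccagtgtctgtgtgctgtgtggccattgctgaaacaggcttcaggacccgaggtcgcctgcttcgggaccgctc
Trpm5 promoter window: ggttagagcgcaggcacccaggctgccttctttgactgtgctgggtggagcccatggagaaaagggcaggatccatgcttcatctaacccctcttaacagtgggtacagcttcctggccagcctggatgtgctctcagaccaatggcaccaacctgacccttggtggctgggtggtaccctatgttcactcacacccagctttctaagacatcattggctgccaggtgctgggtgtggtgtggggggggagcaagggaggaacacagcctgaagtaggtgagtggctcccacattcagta
Sh2d6 promoter window: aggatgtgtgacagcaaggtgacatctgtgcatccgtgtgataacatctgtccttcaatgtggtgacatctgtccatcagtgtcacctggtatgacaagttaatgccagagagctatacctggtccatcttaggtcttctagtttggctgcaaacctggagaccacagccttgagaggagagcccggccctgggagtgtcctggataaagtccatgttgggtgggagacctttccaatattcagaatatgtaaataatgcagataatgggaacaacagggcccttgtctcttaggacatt
Ltc4s promoter window: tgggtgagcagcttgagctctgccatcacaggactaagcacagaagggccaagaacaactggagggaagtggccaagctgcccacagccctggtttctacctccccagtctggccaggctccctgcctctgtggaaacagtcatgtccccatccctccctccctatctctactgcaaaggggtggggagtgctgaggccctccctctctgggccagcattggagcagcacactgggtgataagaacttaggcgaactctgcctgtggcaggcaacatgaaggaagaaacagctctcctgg

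**Figure D1:**
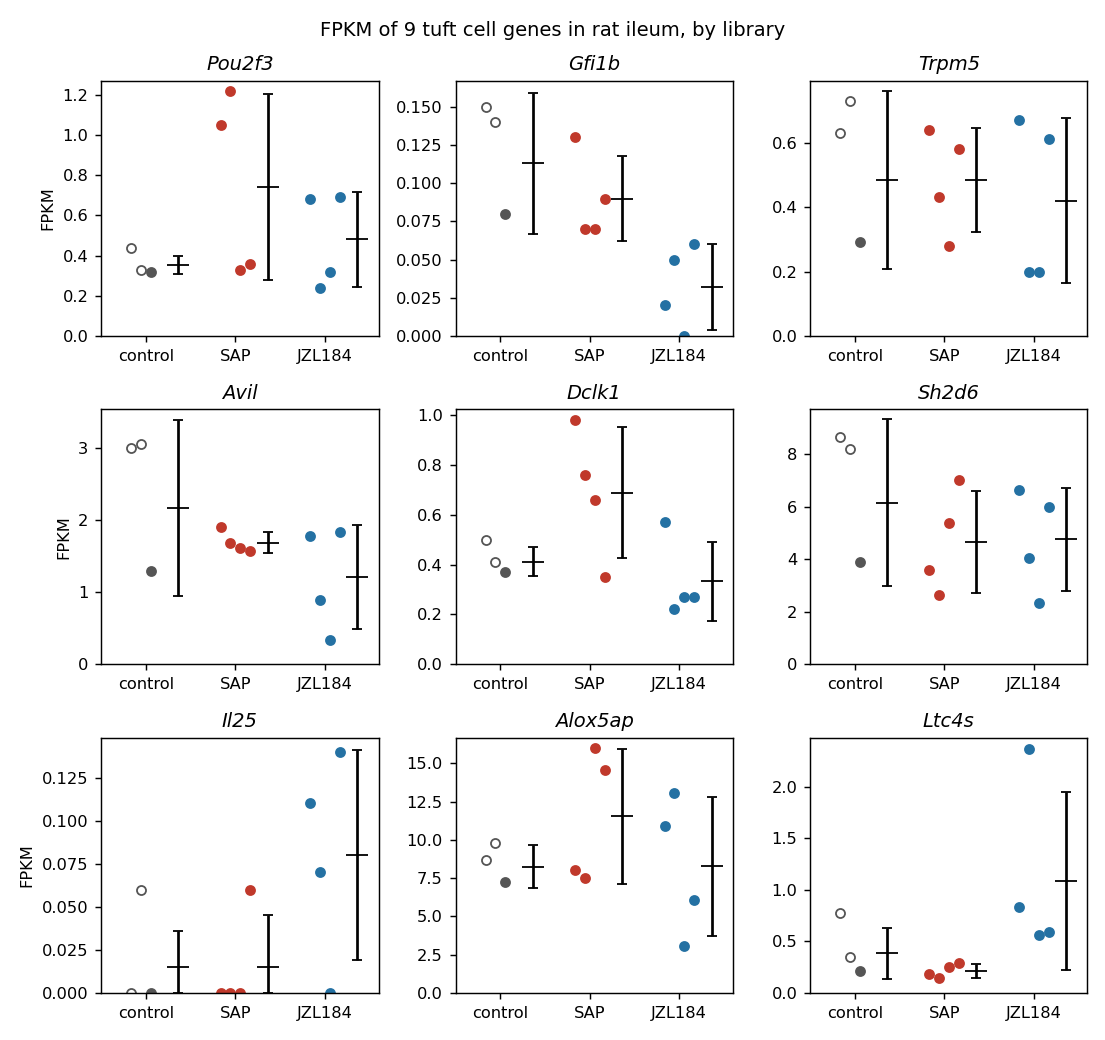
FPKM of the 9 tuft cell genes by library (vertical axes in FPKM, each from 0), with control libraries 1 and 2, which were counted as 1 sample, as open circles, and with the group mean ± SD in black (lower ends stop at 0). Ltc4s was higher in all 4 JZL184 libraries (0.56 to 2.36) than in all 4 SAP libraries (0.14 to 0.29), while the SAP and control libraries overlapped in all 9 genes.

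The first comparison, of SAP with control, asked what pancreatitis changed in the ileum. Of the 9 genes, 8 were tested and with the quasi-likelihood test of edgeR 0 passed the study's thresholds, an adjusted p under 0.05 together with at least a 2-fold difference. Over all 16029 genes tested, 0 (0%) passed, and 9.09% had an unadjusted p below 0.05, against 0 of the 8 tuft cell genes. By DESeq2, 1.23% of genes passed and again 0 tuft cell genes. The log2 fold changes were positive for 3 and negative for 5 genes, with a median of -0.36 against 0.06 for all genes tested. In 0 of the 8 genes were the groups apart. Over all genes, 11.3% were higher and 11.9% were lower in all SAP than in all control samples.

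The second comparison, of JZL184 with SAP, asked what the inhibitor changed in rats with pancreatitis. Here 7 genes were tested and 0 were called by edgeR, as were 0 (0%) of all 15308 genes. At an unadjusted p below 0.05 there were 2, Ltc4s and Dclk1, against 21.3% of all genes. DESeq2 called 1 member, Ltc4s, higher in the JZL184 group, and 6.98% of all genes. Ltc4s was also the 1 gene of the 7 with groups apart. Over all genes, 6.23% were higher and 5.59% were lower in every JZL184 than in every SAP library. The median log2 fold change of the 7 genes was -0.32, against -0.05 for all genes tested, with 2 positive and 5 negative.

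The last comparison, of JZL184 with control, shares the control and JZL184 libraries with the others and is no independent check of them. Of 7 genes tested, 0 were called by edgeR, against 2.16% of 15916 genes, and 0 by DESeq2, against 10.8%. An unadjusted p below 0.05 was found for 0 of the 7 and for 26.3% of all genes. The groups were apart in 0 of the 7, where 18.9% of all genes were higher and 19.3% were lower in every JZL184 than in every control sample. The median log2 fold change was -0.29, against 0.08 for all genes, with 2 positive and 5 negative. Gfi1b in both comparisons with JZL184, and Il25 in all 3, had too few reads to be tested.

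**Figure D2:**
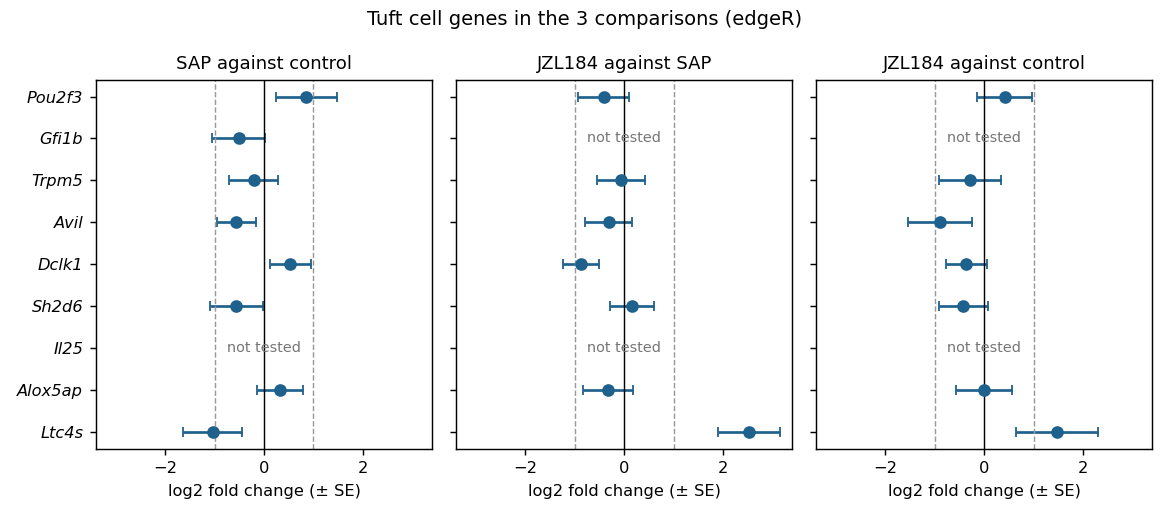
log2 fold changes (horizontal axes) with their standard errors for the tuft cell genes in the 3 comparisons, from edgeR, with dashed lines at a fold change of 2 in each direction. The point farthest from 0 is Ltc4s in JZL184 against SAP at 2.52, and 0 of the points passed an adjusted p of 0.05.

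Among the transcription factors, Pou2f3 is required for tuft cells to form. Its FPKM was 0.44, 0.33 and 0.32 in control libraries 1 to 3, 1.05, 1.22, 0.33 and 0.36 in SAP libraries 1 to 4, and 0.68, 0.24, 0.32 and 0.69 in JZL184 libraries 1 to 4. Both high SAP values came from SAP libraries 1 and 2, the libraries with more reads on long genes, and the other SAP libraries lay within the control range. The mean ± SD was 0.353 ± 0.046 in the control group (n = 2), 0.740 ± 0.462 in the SAP group (n = 4) and 0.483 ± 0.236 in the JZL184 group (n = 4), and later means have the same form. Compared with control, the log2 fold change in SAP was 0.86 (SE 0.61, adjusted p = 0.501), and without SAP libraries 1 and 2 it was -0.09. In JZL184 against SAP it was -0.42 (SE 0.51, adjusted p = 0.645), and without these libraries 0.52. Neither was called, and the direction of both rested on those SAP libraries. Once the trend of each library on gene length was removed, the log2 fold changes were 0.84 and -0.38. Pou2f3 has a longer transcript than 54.1% of genes.

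Gfi1b, a repressor also used by the erythroid and megakaryocyte lineages, had 15, 15 and 9 reads in the control libraries, 17, 8, 8 and 10 in the SAP libraries and 3, 5, 0 and 6 in the JZL184 libraries. All 4 JZL184 libraries were below all other libraries by FPKM, and the SAP and control libraries overlapped. Among the genes tested, 5.59% were lower in every JZL184 than in every SAP library and 19.3% than in every control sample. In SAP against control the log2 fold change was -0.51 (SE 0.53, adjusted p = 0.623). In the comparisons with JZL184 the gene fell under the filter on low counts. With no filter, the log2 fold change was -1.25 (adjusted p = 0.412) against SAP and -1.80 (adjusted p = 0.296) against control, and neither was called. Of the 9 erythroid and megakaryocyte markers, 8 were in the table, led by the globins Hba-a1, Hbb and Hba-a2. Their summed FPKM was 135.29 to 350.68 in control, 64.39 to 384.37 in SAP and 258.33 to 705.49 in JZL184, highest in the group where Gfi1b was lowest, and their part in Gfi1b was not tested.

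Trpm5, which depolarises the tuft cell after calcium release, had FPKM of 0.63, 0.73 and 0.29 in control, 0.64, 0.43, 0.28 and 0.58 in SAP and 0.67, 0.20, 0.20 and 0.61 in JZL184. Each group held both high and low libraries, and all groups overlapped. The means were 0.485 ± 0.276 in control, 0.483 ± 0.161 in SAP and 0.420 ± 0.255 in JZL184. The log2 fold changes were -0.21 (SE 0.50) in SAP against control, -0.06 (SE 0.48) in JZL184 against SAP and -0.29 (SE 0.62) in JZL184 against control, with adjusted p of 0.831, 0.948 and 0.791. The standard errors were larger than the differences.

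The taste chain upstream of Trpm5 was followed through a list of 9 genes, of which 7, 5 and 7 were tested in SAP against control, JZL184 against SAP and JZL184 against control. In each comparison 0 were called by edgeR or by DESeq2, and 1, 2 and 3 had an unadjusted p below 0.05, against 9.09%, 21.3% and 26.3% of all genes. In JZL184 against control all 7 log2 fold changes were negative, with a median of -0.91 against 0.08 for all genes. The 3 most abundant members were Itpr3 and Itpr2, which release calcium from stores, and Gng13, a G protein subunit. Their log2 fold changes against control were -0.33 (adjusted p = 0.419), -0.91 (adjusted p = 0.155) and -0.16 (adjusted p = 0.905). Plcb2, the phospholipase between receptor and Trpm5, was singled out after its values were seen. Its FPKM was 1.07, 0.96 and 0.94 in control, 0.87, 0.90, 1.02 and 0.83 in SAP and 0.99, 0.38, 0.13 and 0.40 in JZL184. JZL184 libraries 2 to 4 lay below all other libraries and JZL184 library 1 lay among them. Its log2 fold change against control was -1.08 (SE 0.63, adjusted p = 0.307).

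Sucnr1, the receptor by which tuft cells sense succinate, was also singled out after its values were seen. It had 9, 15 and 13 reads in control, 3, 3, 2 and 3 in SAP and 0, 3, 5 and 3 in JZL184. Every control library was above every library of the other groups. Over all genes, 11.9% were lower in all SAP and 19.3% in all JZL184 than in all control samples. The log2 fold change of SAP against control was -2.42 (SE 0.52), with an adjusted p of 0.403 by edgeR and 0.167 by DESeq2, and that of JZL184 against control was -2.15 (SE 0.85, adjusted p = 0.157 by edgeR). Neither passed. These comparisons share the control libraries, and no library held more than 15 reads of the gene.

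Avil encodes advillin, an actin-binding protein of the tuft cell brush. Its FPKM was 3.00, 3.05 and 1.30 in control, 1.90, 1.68, 1.61 and 1.57 in SAP and 1.78, 0.90, 0.34 and 1.83 in JZL184. The SAP libraries were close together, the 2 nearly identical control libraries were the highest and JZL184 library 3 was the lowest. The means were 2.16 ± 1.22 in control, 1.69 ± 0.15 in SAP and 1.21 ± 0.72 in JZL184. The log2 fold changes were -0.56 (SE 0.40, adjusted p = 0.505) in SAP against control, -0.32 (SE 0.47, adjusted p = 0.704) in JZL184 against SAP and -0.90 (SE 0.65, adjusted p = 0.402) in JZL184 against control. None passed. Avil overlaps Tsfm in the GRCr8 annotation, and whether strand was used in counting is not given in the sources used here.

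Dclk1 encodes a kinase used widely as a tuft cell marker and also made by neurons. Its FPKM was 0.50, 0.41 and 0.37 in control, 0.98, 0.76, 0.66 and 0.35 in SAP and 0.57, 0.22, 0.27 and 0.27 in JZL184. SAP libraries 1 to 3 were above all control libraries and SAP library 4 was below them, and JZL184 library 1 was above the other JZL184 libraries. The means were 0.412 ± 0.060 in control, 0.688 ± 0.262 in SAP and 0.333 ± 0.160 in JZL184. In JZL184 against SAP the log2 fold change was -0.87 (SE 0.37, unadjusted p = 0.0403, adjusted p = 0.215). It was negative in 20 of 20 alternatives, which reuse the same libraries. In SAP against control it was 0.53 (SE 0.41, adjusted p = 0.528), and it was -0.11 once the trend of each library on gene length was removed. Dclk1 has a longer transcript than 96.7% of genes, and its highest values came from SAP libraries 1 and 2.

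The enteric neuron markers, 8 of 8 in the table and led by Prph, Uchl1 and Tubb3, had a summed FPKM of 34.94 to 45.18 in control, 18.80 to 45.52 in SAP and 43.10 to 67.87 in JZL184. The sum was highest in the group in which the means of Avil and Dclk1 were lowest, and SAP library 2 had the lowest sum. Elavl4 and Elavl3, which mark neurons, were at 0.04 to 0.69 FPKM. The part of neurons in the 2 genes was not tested.

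Sh2d6, an adaptor-like SH2 domain gene, was the second most abundant member. Its FPKM was 8.63, 8.19 and 3.90 in control, 3.59, 2.64, 5.38 and 7.02 in SAP and 6.64, 4.05, 2.34 and 5.98 in JZL184. Low and high libraries occurred in each group, with JZL184 library 3 and SAP library 2 at the bottom. The means were 6.16 ± 3.19 in control, 4.66 ± 1.94 in SAP and 4.75 ± 1.95 in JZL184. The log2 fold changes were -0.56 (SE 0.54, adjusted p = 0.593) in SAP against control, 0.15 (SE 0.44, adjusted p = 0.859) in JZL184 against SAP and -0.43 (SE 0.49, adjusted p = 0.604) in JZL184 against control. Without the summed control sample, the comparisons of SAP and of JZL184 with control gave 0.19 and 0.31, so their direction rested on that sample.

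Il25, the cytokine by which tuft cells call on innate lymphoid cells, was at the limit of detection. It had 0, 1 and 0 reads in control, 0, 0, 0 and 1 in SAP and 2, 1, 0 and 2 in JZL184. No difference was detectable at this depth. Of the type 2 list of 14 genes, Il9 had no row, and Il13, Il4, Il5 and Retnlb had under 3 reads per library on average. The 9 that were tested included 0 called by edgeR in each comparison, with 0, 6 and 5 at an unadjusted p below 0.05 in SAP against control, JZL184 against SAP and JZL184 against control (9.09%, 21.3% and 26.3% of all genes). DESeq2 called 0, 1 and 2 of them (1.23%, 6.98% and 10.8% of all genes), Areg in both comparisons with JZL184 and Rora in JZL184 against control, all higher.

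Areg, an epidermal growth factor family ligand, was among the 3 most abundant genes of this list, with Il4r and Il13ra1, which form receptors for interleukin-4 and interleukin-13. Its FPKM was 4.16, 5.27 and 4.70 in control, 7.36, 9.40, 8.38 and 14.56 in SAP and 9.02, 70.57, 100.39 and 70.12 in JZL184. JZL184 libraries 2 to 4 were far above all others, and JZL184 library 1 lay among the SAP libraries. The log2 fold change of JZL184 against SAP was 2.81 (SE 0.63) with an adjusted p of 0.0856 by edgeR and 0.000375 by DESeq2. Against control it was 3.71 (SE 0.89) with an adjusted p of 0.0641 by edgeR and 3.78e-06 by DESeq2. The log2 fold changes of JZL184 against SAP were 0.74 (adjusted p = 0.224) for Il4r and -1.68 (adjusted p = 0.168) for Il13ra1.

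Alox5ap, the membrane protein that presents arachidonic acid to 5-lipoxygenase, was the most abundant member. Its FPKM was 8.70, 9.81 and 7.26 in control, 8.00, 7.52, 16.01 and 14.59 in SAP and 10.90, 13.04, 3.06 and 6.04 in JZL184. SAP libraries 3 and 4 were the highest and JZL184 libraries 3 and 4 the lowest, and all groups overlapped. The means were 8.26 ± 1.41 in control, 11.5 ± 4.4 in SAP and 8.26 ± 4.54 in JZL184. The log2 fold changes were 0.33 (SE 0.47, adjusted p = 0.717) in SAP against control, -0.32 (SE 0.51, adjusted p = 0.724) in JZL184 against SAP and -0.01 (SE 0.57, adjusted p = 0.990) in JZL184 against control. None passed.

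Ltc4s encodes leukotriene C4 synthase, the next enzyme after 5-lipoxygenase on the way to cysteinyl leukotrienes. It had 33, 16 and 10 reads in control, 10, 7, 11 and 14 in SAP and 42, 104, 25 and 25 in JZL184. As FPKM these were 0.77, 0.35 and 0.21, then 0.18, 0.14, 0.25 and 0.29, and then 0.83, 2.36, 0.56 and 0.59. All 4 JZL184 libraries were above all 4 SAP libraries, and control library 1 lay among the JZL184 libraries. The means were 0.385 ± 0.247 in control, 0.215 ± 0.068 in SAP and 1.08 ± 0.86 in JZL184.

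In JZL184 against SAP the log2 fold change of Ltc4s was 2.52 (SE 0.63, unadjusted p = 0.00235), higher than in 99.3% of genes tested. The adjusted p was 0.0951 by edgeR, which missed the threshold, and 0.00365 by DESeq2, which passed it. The log2 fold change was 0.70 to 2.76 and positive in 20 of 20 alternatives. With every JZL184 library above every SAP library, these fits of the same libraries could hardly give another sign. JZL184 library 2 held the highest value, and without it the log2 fold change was 1.68 (adjusted p = 0.236 by edgeR). In SAP against control it was -1.03 (SE 0.60, adjusted p = 0.462), and in JZL184 against control 1.46 (SE 0.82, adjusted p = 0.291). Ltc4s overlaps Mgat4b in the GRCr8 annotation. The FPKM of Mgat4b was 6.16 to 11.06 in SAP and 7.60 to 13.66 in JZL184, and its log2 fold change was 0.40 (adjusted p = 0.452).

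Mast cells and other leukocytes also make Alox5ap and Ltc4s. Of the 10 mast cell markers, 9 were in the table, and Tpsb2 and Tpsab1 were at or near 0. The summed FPKM was 167.21 to 188.89 in control, 30.99 to 116.06 in SAP and 5.92 to 25.57 in JZL184. The 3 groups did not overlap, and the JZL184 libraries, in which Ltc4s was highest, had the lowest sums. In JZL184 against control, 3 of the 7 tested markers were called lower, Mcpt2 (a mucosal mast cell protease, log2 fold change -3.73, adjusted p = 0.0420), Cpa3 (-3.15, adjusted p = 0.0466) and the IgE receptor subunit Fcer1a (12, 19 and 15 reads in control and 1, 0, 0 and 0 in JZL184, adjusted p = 0.0286). Called by edgeR were 2.16% of all genes in that comparison and 0% in JZL184 against SAP, where DESeq2 called 2 markers lower, Cpa3 (log2 fold change -2.32, adjusted p = 0.00623) and Mcpt2 (-2.14, adjusted p = 0.0193), and 6.98% of all genes. Most of the sum came from Mcpt2. Ms4a2 was also lower against control (-0.54 in SAP and -1.55 in JZL184) but was not called. Kit, the stem cell factor receptor, went the other way, with log2 fold changes of 1.11 in SAP and 0.66 in JZL184 against control (adjusted p = 0.459 and 0.339 by edgeR). Its mean FPKM was 0.737 in control, 2.00 in SAP and 1.31 in JZL184. Hdc, which makes histamine, had 0.51, 0.54 and 0.625. The control means of these genes count the 3 control libraries separately.

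The 10 myeloid markers, all in the table, had a summed FPKM of 1012.67 to 1218.49 in control, 755.50 to 2258.43 in SAP and 253.60 to 1194.09 in JZL184, most of it from Lyz2, so that the sum says little of the others. In SAP against control all 10 log2 fold changes were positive, with a median of 1.42 against 0.06 for all genes. By edgeR 0 were called in each comparison, with 5, 3 and 5 at an unadjusted p below 0.05 in SAP against control, JZL184 against SAP and JZL184 against control (9.09%, 21.3% and 26.3% of all genes). DESeq2 called 3, 2 and 4 of the 10, against 1.23%, 6.98% and 10.8% of all genes. The neutrophil genes S100a8, S100a9 and Csf3r were called higher in SAP against control (adjusted p = 1.0e-05, 0.000115 and 0.0192 by DESeq2) and in JZL184 against control. Csf1r, the receptor that marks macrophages, was called lower in both comparisons with JZL184 (adjusted p = 0.0167 and 0.0103 by DESeq2), and Adgre1 was called lower in JZL184 against SAP (adjusted p = 0.0453 by DESeq2). S100a8 was 0 to 0.63 FPKM in control, 3.56 to 39.55 in SAP and 6.33 to 148.71 in JZL184, with its highest value in JZL184 library 2, which was also the highest library for Ltc4s. The lowest myeloid sum was in JZL184 library 3, which was also the lowest library for Alox5ap. That sum was mostly Lyz2 (196.59 FPKM), and the other markers were mixed in this library. Cd14 (27.43) had its highest value of all libraries there, and S100a8 (6.33) its lowest of the JZL184 group. The 5 eosinophil markers had 3 rows (Prg2, Ccr3 and Epx) and a summed FPKM of at most 0.70. The part of these cells in Alox5ap and Ltc4s was not tested.

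**Figure D3:**
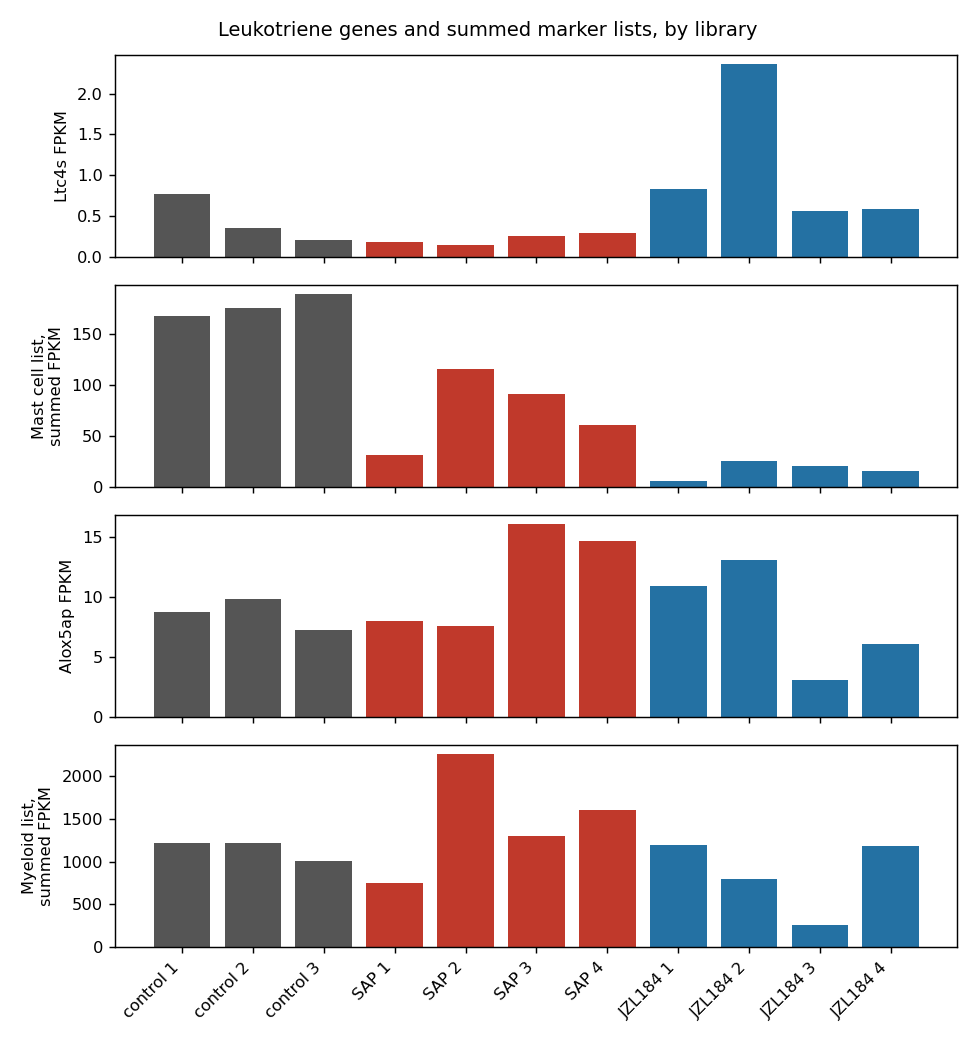
FPKM of Ltc4s and Alox5ap and the summed FPKM of the mast cell and myeloid marker lists in each of the 11 libraries (bars, grey for control, red for SAP, blue for JZL184, vertical axes from 0). The mast cell sum was 5.92 to 25.57 in the JZL184 libraries, where Ltc4s was 0.56 to 2.36, and 30.99 to 116.06 in the SAP libraries, where Ltc4s was 0.14 to 0.29.

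The rest of the eicosanoid list, 7 genes for the making and sensing of leukotrienes and prostaglandins, had 7, 6 and 6 genes tested and 0 called by edgeR or DESeq2 in each of the 3 comparisons. At an unadjusted p below 0.05 there were 0, 2 and 1, against the same 9.09%, 21.3% and 26.3% of all genes. The most abundant were Ptgs1 (cyclooxygenase), Pla2g4a (the phospholipase that frees arachidonic acid) and Hpgds (prostaglandin D synthase), with log2 fold changes of JZL184 against SAP of -0.02 (adjusted p = 0.954), -0.70 (adjusted p = 0.306) and -0.60 (adjusted p = 0.461). Alox5, the 5-lipoxygenase that works with Alox5ap, was singled out after its values were seen. Its FPKM was 0.69, 0.74 and 0.60 in control, 0.69, 1.44, 0.90 and 0.68 in SAP and 0.54, 0.46, 0.24 and 0.35 in JZL184. All JZL184 libraries were below all others, the opposite side from Ltc4s. Over all genes, 5.59% were lower in every JZL184 than in every SAP library and 19.3% than in every control sample. The log2 fold change of JZL184 against SAP was -1.04 (SE 0.40, adjusted p = 0.190).

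A further list of 22 tuft cell genes had 20 in the table, of which 20, 19 and 20 were tested and 0 called by edgeR in SAP against control, JZL184 against SAP and JZL184 against control. Unadjusted p below 0.05 was found for 2, 2 and 3 genes, against 9.09%, 21.3% and 26.3% of all genes. DESeq2 called 0, 0 and 1 of them, against 1.23%, 6.98% and 10.8% of all genes. The gene called was Ascl2, a stem cell transcription factor, lower in JZL184 against control (adjusted p = 0.0483). The median log2 fold changes of the tested genes were -0.09, -0.15 and -0.04. Ptpn6 and Irag2, among the most abundant, are shared with blood cells, and their log2 fold changes of JZL184 against SAP were -0.15 and -0.01. Chat, which makes the acetylcholine of tuft cells, and Rgs13, a regulator of G protein signalling, were singled out after their values were seen. They had log2 fold changes of 0.57 (adjusted p = 0.461) and 0.58 (adjusted p = 0.431) in JZL184 against SAP.

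Of 8 epithelial markers, 7 had a negative log2 fold change in SAP against control and 7 in JZL184 against control. Their summed FPKM, carried by Krt20, Epcam, Krt19 and Krt8, was 17974.01 to 22119.94 in control, 8355.74 to 14294.45 in SAP and 7853.96 to 10047.27 in JZL184. In JZL184 against control edgeR called Krt19 lower (log2 fold change -1.59, adjusted p = 0.0418) and 2.16% of all genes. Of the other abundant markers, Epcam was not called by either tool and Krt20 was called lower by DESeq2 alone (adjusted p = 0.0135), as were Krt8 (0.00242) and Vil1 (0.0189). DESeq2 called 4 of the 8 markers in that comparison, against 10.8% of all genes. The markers did not move together. Cdh1 was 105.02 to 117.73 FPKM in control, 132.16 to 165.58 in SAP and 151.29 to 193.66 in JZL184, above control in every library of both groups, with log2 fold changes of 0.20 (adjusted p = 0.714) and 0.61 (adjusted p = 0.249), and Epcam had -0.47 and -0.23. Of the 8 markers, 5 were lower and 1 was higher in all SAP than in all control samples, against 11.9% and 11.3% of all genes. In JZL184 against control, 6 were lower and 1 was higher in this way, against 19.3% and 18.9%. The median log2 fold changes of the 8 were -0.89 and -1.16, against 0.06 and 0.08 for all genes. Whether the share of epithelium changed was not tested. The tuft cell genes were also divided by the geometric mean FPKM of these 8 markers and multiplied by 1000. On this scale Pou2f3 was 0.270 to 0.358 in control, 0.401 to 2.19 in SAP and 0.375 to 1.17 in JZL184, and Alox5ap was 7.08 to 8.04, 12.9 to 19.7 and 6.06 to 20.4. Sh2d6 was 3.86 to 7.02, 4.74 to 7.81 and 4.63 to 11.5. Of 7 genes, Pou2f3, Dclk1 and Alox5ap were higher in all SAP than in all control samples, as were 41.7% of 15502 genes on this scale. Pou2f3 and Ltc4s were higher in all JZL184 than in all control samples, as were 54.1% of genes. Whether the members followed the epithelium was not tested.

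The 7 genes with enough reads varied together only in part. Over 10 samples, the median Pearson r of log2(FPKM + 0.1) over their 21 pairs was 0.215. The closest pairs were Trpm5 with Avil (r = 0.79), Avil with Sh2d6 (r = 0.69) and Pou2f3 with Dclk1 (r = 0.69), and Trpm5 with Sh2d6 had r = 0.61. Ltc4s ran against Dclk1 (r = -0.66) and Pou2f3 (r = -0.47). The samples share groups and the libraries share differences in gene length, so these values are given as a description.

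**Figure D4:**
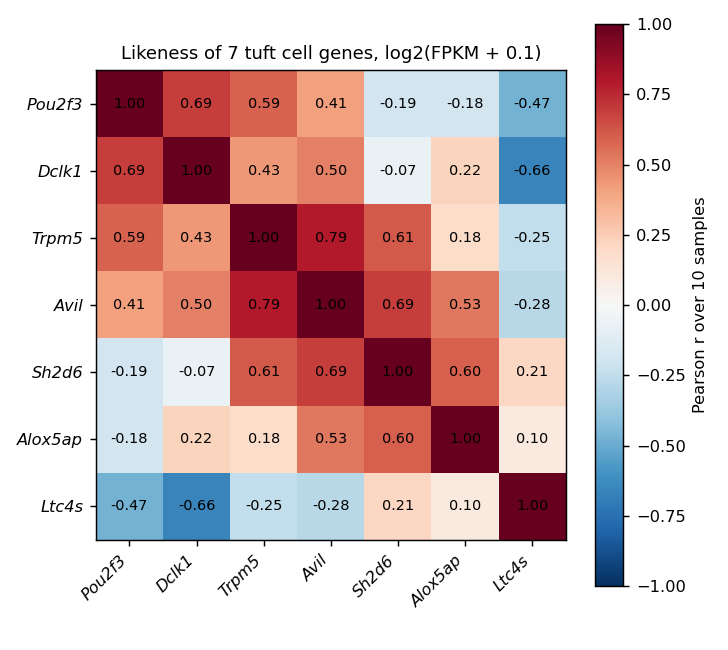
Pearson r between 7 tuft cell genes over 10 samples, on log2(FPKM + 0.1), with red for positive and blue for negative values and r printed in each cell. Trpm5, Avil and Sh2d6 form a block of 0.61 to 0.79, Pou2f3 pairs with Dclk1 at 0.69, and Ltc4s has negative values with Pou2f3, Dclk1, Trpm5 and Avil.

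Genes nearest to each member were sought among genes with a mean FPKM of at least 0.5. Sh2d7, a relative of Sh2d6 known from tuft cells, was the gene nearest to Avil (r = 0.957) and the second nearest to Trpm5 (r = 0.855). Its FPKM was 2.36, 2.40 and 1.11 in control, 2.74, 1.43, 1.27 and 1.66 in SAP and 1.87, 0.63, 0.20 and 1.52 in JZL184, with the lowest value in JZL184 library 3, as for Avil. The others nearest to Avil were Preb (r = 0.948) and Plcb3 (r = 0.940), and those nearest to Trpm5 were Styxl1 (r = 0.876) and LOC689065 (r = 0.839). For Dclk1 they were Il33 (r = 0.978), Hyou1 (r = 0.977) and Uggt1 (r = 0.971). Il33, an alarmin of the type 2 circuit, had FPKM of 8.92, 6.88, 4.08 and 1.89 in SAP libraries 1 to 4, the same order as Dclk1. For Pou2f3 they were Tut7 (r = 0.977), Lysmd3 (r = 0.959) and Pcnx1 (r = 0.955), and for Sh2d6 they were Rhpn1 (r = 0.933), Itpkc (r = 0.902) and Dolpp1 (r = 0.899). Alox5ap had Wfdc21 (r = 0.931), Tnnt1 (r = 0.911) and LOC102546327 (r = 0.906), and Ltc4s had Mapk13 (r = 0.919), Tnfrsf22 (r = 0.916) and Mettl6 (r = 0.914). With about 12740 candidates and 10 samples, values of this size are a ranking and carry no test.

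Across the processing alternatives, 0 tuft cell genes were called in 22 of 22 alternatives for SAP against control, in 19 of 20 for JZL184 against SAP and in 19 of 21 for JZL184 against control. The exceptions were Ltc4s by DESeq2 and Avil in the fits with the replicate number as a block, each 1 gene.

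**Figure D5:**
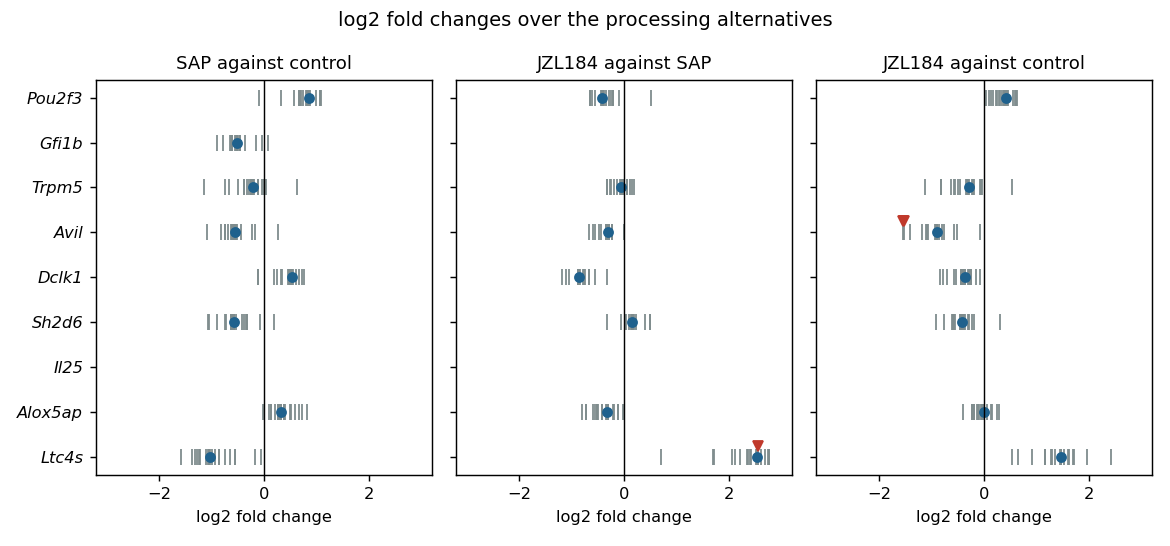
log2 fold changes (horizontal axes) of the tuft cell genes under each processing alternative (grey ticks), with the reported value (blue points) and the calls (red triangles), in the 3 comparisons. Ltc4s in JZL184 against SAP stays between 0.70 and 2.76, while in SAP against control Ltc4s was the 1 tested member of 8 without ticks on both sides of 0.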

How the data were processed

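RNA of ileal tissue was sequenced as stranded paired-end libraries. The authors aligned the reads with HISAT2 to mRatBN7.2 and deposited whole-number read counts per gene without normalization. The authors also deposited FPKM, scaled to gene length and library size and rounded to 2 decimals. Not given in the sources used here were the counting tool and the annotation. Groups were taken from the labels.

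Control libraries 1 and 2 were summed (FPKM averaged). Each pair of groups was fitted in edgeR 4.0.16 (R 4.3.3) by quasi-likelihood with TMM normalization and filterByExpr (minimum count 10) over all genes. A call needed a Benjamini-Hochberg adjusted p under 0.05 and a 2-fold difference in either direction. The alternatives comprised DESeq2 1.42.0, limma 3.58.1 (voom, and log2(FPKM + 0.1) or + 1), other size factors, no filter, no fold threshold, all groups in 1 fit, 3 separate control libraries, a replicate block, gene length offsets (span 0.3) and leaving out each library. The fit was tested on simulated data, with changes planted in well-covered genes and a spread set far below that of these data. That test checked the direction and size of fold changes and does not measure the power of the fit here. Standard errors were the log2 fold change over the square root of F. The labels do not tie each library to 1 rat, so p-values measure the spread between these samples.

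The tuft cell genes and the other lists were chosen with earlier results of these data known. Named were all 9 members, the 3 most abundant genes and every called gene of each list, the 3 genes nearest to each member, and a few genes picked for their values, as stated beside each. Some genes of the lists are not reported here. The depth, 26341299 to 33847135 reads per library, leaves counting error as a limit for Gfi1b, Il25 and Ltc4s. The enteroendocrine list had 7 of 7 genes in the table, led by Chgb, Chga and Sct, with a summed FPKM of 338.90 to 1584.64. In this list and the smooth muscle list, 0 genes were called by edgeR in any comparison. DESeq2 called 2 (Cck and Sct) and 1 (Tagln), all lower in JZL184 against control. In that comparison edgeR called 2.16% and DESeq2 10.8% of all genes.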

Additional observations from a re-analysis of the deposited data

Results flagged for a closer look

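Of 18 sets of 4 libraries tested for a library far from the others of its group (Dixon's test at its 95% critical value), 3 were flagged. Chance alone flags about 1 in 20. Dclk1 had an FPKM of 0.57 in JZL184 library 1, above the other 3 JZL184 libraries (0.22 to 0.27), with a gap of 0.857 of the range. Ltc4s had 2.36 in JZL184 library 2, above 0.56 to 0.83 in the others, with a gap of 0.850 of the range. Il25 had 0.06 in SAP library 4, which is 1 read, where the other SAP libraries had 0 reads.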

How the results depend on the processing

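The count of 0 called tuft cell genes held in all alternatives but 3. DESeq2 called 1 gene, Ltc4s, in JZL184 against SAP. With the replicate number as a block and 3 separate control libraries, 1 gene, Avil, was called in JZL184 against control (log2 fold change -1.53, adjusted p = 0.0451), and 1 with the block and gene length offsets together (-1.54, adjusted p = 0.0451). Same-numbered libraries did not deviate together (correlations of -0.53 to 0.21). Deviations were taken from the means of a few libraries, so this cannot exclude a pairing. The block changed no other call. With the block Alox5ap was -0.021 in SAP against control, and the block with length offsets gave Dclk1 -0.11.

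Of the values of single genes, 432 kept their direction and their side of the threshold, 3 passed it and 26 turned in direction. None of those 26 was called, and the cause was not tested. The setting with no fold threshold repeats the main log2 fold changes, so in it no direction could turn. With length offsets, Dclk1 was -0.11 in SAP against control, Trpm5 0.0525 in JZL184 against SAP and Alox5ap 0.14 in JZL184 against control. On FPKM, Trpm5 was 0.033 (+ 0.1) and 0.0035 (+ 1) in SAP against control. Leaving out SAP libraries 1 and 2, chosen after seeing the data, gave Pou2f3 -0.0905 in SAP against control, and 0.52 for Pou2f3 and -0.34 for Sh2d6 in JZL184 against SAP.

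Leaving out single samples gave, in SAP against control, Gfi1b -0.89 to 0.068, Trpm5 -0.73 to 0.62, Avil -1.08 to 0.27 and Sh2d6 -1.05 to 0.19, the upper ends all without the summed control sample. A lone control sample is then assumed to vary like the SAP libraries. In JZL184 against SAP the ranges were -0.32 to 0.19 for Trpm5, -0.60 to 0.0046 for Avil and -0.069 to 0.49 for Sh2d6. In JZL184 against control they were -0.82 to 0.52 for Trpm5, -0.92 to 0.31 for Sh2d6 and -0.41 to 0.28 for Alox5ap. Without JZL184 library 2, Ltc4s was 1.68 in JZL184 against SAP, where it was 2.52 with it. The median r between genes was 0.182 to 0.393.

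Over all genes the count of calls depended far more on the processing. DESeq2 called 208, 1283 and 1899 genes in SAP against control, JZL184 against SAP and JZL184 against control, where edgeR called 0, 0 and 343. Counting 3 separate control libraries gave 33 genes in SAP against control and 2800 in JZL184 against control with edgeR, and 1434 and 3482 with DESeq2. The counts were for limma-voom 21, 1312 and 2898, and for no filter 14, 27 and 929. Fitting all groups together gave 4, 207 and 369. Leaving out JZL184 library 1 gave 655 against SAP and 1867 against control, and leaving out control library 3 gave 1 against control.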
